A study of Mus musculus with 12 samples.

Results

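Transcripts of 92 potassium channel genes were measured in the mouse cecum before and after cauterization, a burn that leads to abdominal adhesions. The members were the genes on the array whose symbol is Kcn followed by letters and a number, and they were 92 of 37074 genes. The mice, C57BL/6 in the study's methods and with no age given in the sources used here, for which the labels name no transgene, were sampled in 4 groups of 3. The sham control had the operation without cauterization and was taken right after it, while the other groups had the cecum burned with bipolar forceps and were taken 3, 12 or 72 h later. All groups shared anesthesia and laparotomy, and a sham group for the later times was not analysed here, so that time after the operation and cauterization cannot be told apart. Total RNA of whole cecum tissue, a mixture of epithelium, muscle, nerves, vessels and blood cells, was labelled with 1 dye and hybridised to 1 array per sample. The study calls the arrays biological triplicates. The p-values rest on a spread between samples of the same group that was pooled over all 4 groups.

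Potassium channels let potassium leave or enter cells and thereby set the resting membrane potential. In the gut wall they hold smooth muscle and enteric neurons in check between contractions, provide the driving force for chloride secretion in the epithelium, and support calcium entry in immune cells. Pore subunits fall into classes by how they open, with voltage-gated channels, modifier subunits that work only together with another pore subunit, channels gated by calcium or sodium, inward rectifiers and 2-pore-domain leak channels, while auxiliary subunits tune the pores they bind.

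The 12 arrays had between 60.2% and 65.2% of their probes well above background and no saturated spot. The sham and 3 h arrays and 12 h arrays 1 and 2 lay on slide 1, and 12 h array 3 and the 72 h arrays lay on slide 2, so that slide and the 72 h group can be separated only through 1 array. The labels give all mice as male, yet Xist, which is transcribed from the inactive X chromosome of females, was well above background on all 12 arrays. The Y-linked Ddx3y and Eif2s3y were so on 0 arrays, Uty on 1 sham array and Kdm5d on all 12. Of these 5 genes, only Kdm5d thus went with the labelled sex on every array. This held in all 4 groups, and its part in the results was not tested.

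Values are log2 intensities relative to the 75th percentile of their own array, which is set to 0, and values of different probes are not comparable as levels. A gene was read from its brightest probe and called at a change above 2-fold, which is 1 on the log2 scale, with an adjusted p below 0.05 in limma, adjusted over all probes. Errors after ± are standard errors of the log2 change from limma, with 3 arrays per group. In whole tissue, fewer cells of a type and less RNA per cell cannot be told apart. Of the 92 members, 64 were well above background on all 3 arrays of at least 1 group (69.6%, against 64.3% of all genes). On all 12 arrays 48 were so, while 16 were on none and 12 on some arrays but never on a whole group.

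The potassium channel genes called after cauterization were mostly lower, and the 5 that were well above background and raised were Kcnj2, Kcnj8, Kcne4, Kcnn4 and Kcnk13. At 3 h, 4 of 92 members were higher (4.35%, against 3.26% of all genes) and 18 lower (19.6%, against 4.11%). At 12 h, 4 were higher (4.35%, against 4.1%) and 18 lower (19.6%, against 4.96%). At 72 h, 5 were higher (5.43%, against 4.55%) and 6 lower (6.52%, against 4.3%). With slide as a block the 72 h counts were 2 higher (Kcnj2 and Kcnk13) and 3 lower (Kcnd3, Kcnj12 and Kcnv1), all 72 h arrays being on slide 2 and all sham arrays on slide 1. The share of members that rose was thus close to that of all genes at each time, and so was the share that fell at 72 h, while the share that fell at 3 and 12 h was several-fold that of all genes. The median log2 change of the members was -0.14, -0.40 and -0.22 at 3, 12 and 72 h, beside 0.08, -0.01 and -0.14 over all genes. Over the 3 times 31 members were called, 25 only lower and 6 only higher, and 61 were not called. The 3 comparisons share the sham arrays and are therefore not independent of each other.

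**Figure D1:**
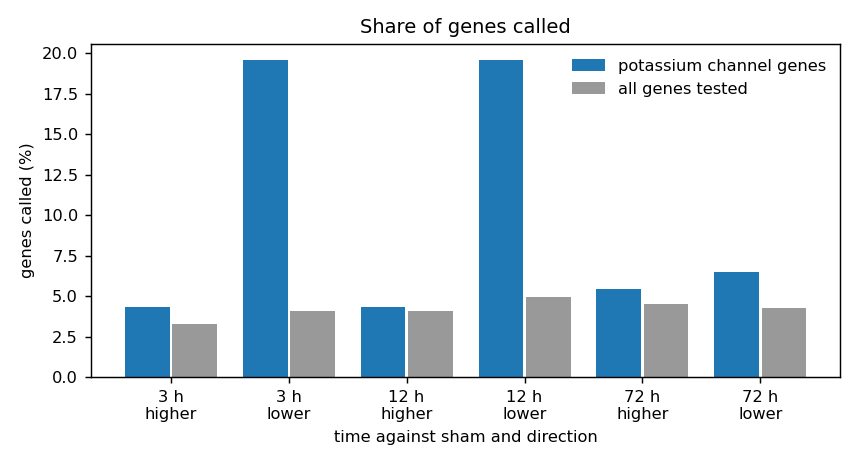
Share of the 92 potassium channel genes (blue) and of all 37074 genes (grey), in percent, called higher or lower than sham at each time. The blue bars stand at 19.6% for genes lowered at 3 and 12 h, where the grey bars stand at 4.11% and 4.96%.

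The preponderance of lowered genes depended on how background was treated. With normexp background correction and an offset of 50, which compresses dim probes, 3 members were lower at 3 h (Kcnh3, Kcnj10 and Kcnk5) and 1 at 12 h and at 72 h (Kcnd3). Called members then numbered 7, 4 and 4 at the 3 times, instead of 22, 22 and 11. The share of them that were lower was 42.9%, 25% and 25%, instead of 81.8%, 81.8% and 54.5%. Over all 37074 genes, 838, 1327 and 1258 were then called, instead of 2732, 3360 and 3282. Of these, 24.7%, 37.8% and 30.8% were lower with that correction, instead of 55.7%, 54.7% and 48.6%. By these counts lowered members were in excess of all genes at 3 h, through 3 genes, and not at 12 or 72 h. With an offset of 1, tried after seeing the data, 9 members were lower at 3 h and at 12 h. Called members then numbered 13, 13 and 10 at the 3 times, beside 1851, 2516 and 2330 of all genes. The share of them that were lower was 69.2%, 69.2% and 50%, beside 43.9%, 49.5% and 41.2% of all genes called. Raised members numbered 4, 3 and 3 at 3, 12 and 72 h with the offset of 50 and 4, 4 and 5 with the offset of 1. With the offset of 50 the calls of Kcne4 at 72 h (0.60, adjusted p = 0.0704) and of Kcnk13 at 12 h (0.60) were lost.

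**Figure D2:**
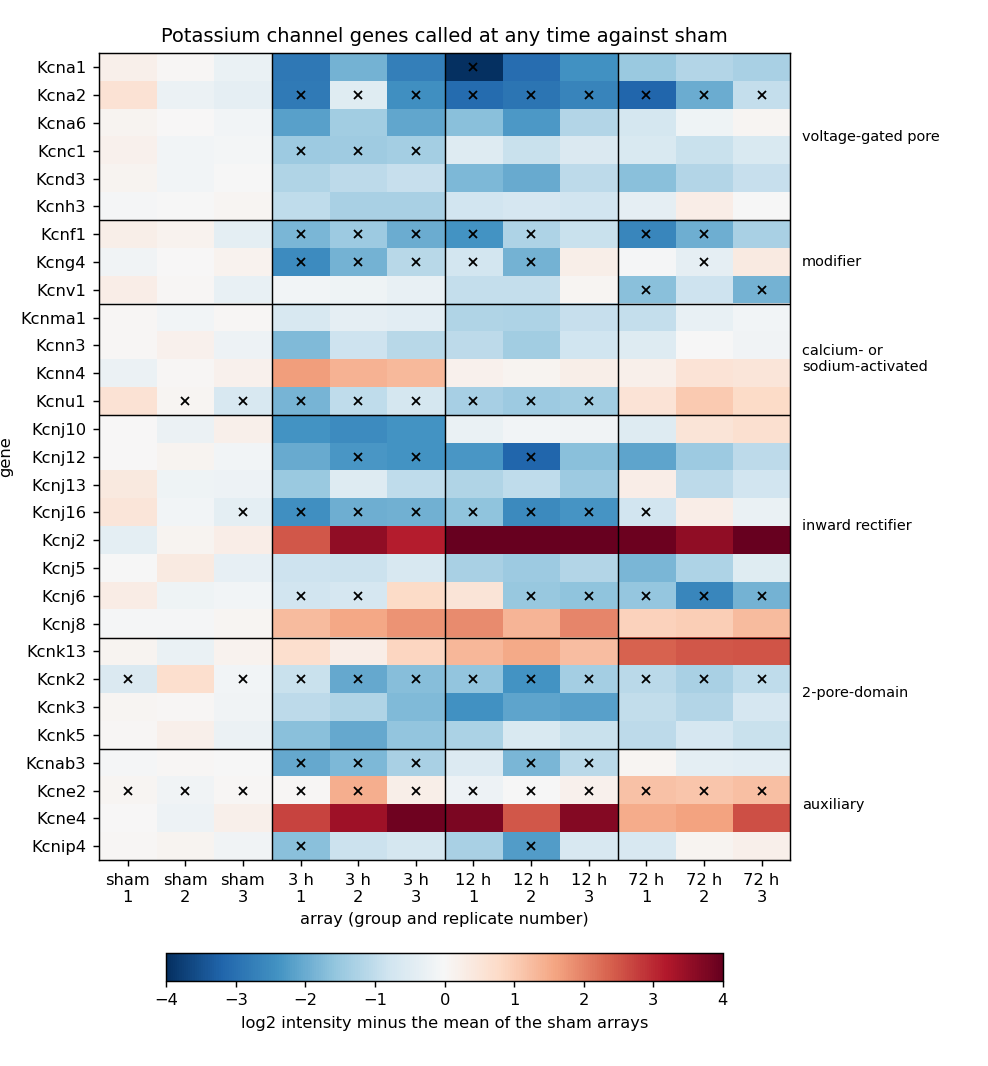
Potassium channel genes called at any time (29 of the 31), in rows by class, on each of the 12 arrays in columns. Colour gives the log2 intensity minus the mean of the sham arrays, limited to 4 on either side, and a cross marks an array on which the probe was not well above background; the raised Kcnj2, Kcnj8 and Kcne4 stand out from rows that are mostly blue.

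Smooth muscle markers fell beside the channel genes. Of 10 such markers 2, 10 and 7 were lower at 3, 12 and 72 h, with a median log2 change of -0.79, -1.50 and -1.47. Their summed level, in multiples of the 75th percentile, ranged from 558 to 597 in sham, 304 to 368 at 3 h, 176 to 279 at 12 h and 204 to 270 at 72 h. Of 8 enteric neuron markers, 7 of them well above background, 0 were called by limma at any time, while 5, 4 and 1 were lower at an unadjusted p below 0.05. Their median was -0.60, -0.59 and -0.38 at 3, 12 and 72 h, with summed levels of 26.8 to 30.7 in sham, 24.6 to 25.6 at 3 h, 23.8 to 32.1 at 12 h and 16.0 to 20.2 at 72 h. Of 4 enteric glia markers, 2 were lower at 12 h and 1, S100b, at 72 h, and the summed level was 1.08 to 1.38 in sham, 0.789 to 1.02 at 3 h, 0.463 to 0.905 at 12 h and 0.879 to 1.30 at 72 h. Neutrophil markers rose, 6 of 7 at 3 and 12 h and 5 at 72 h, with a median log2 change of 6.99, 6.97 and 5.21. At an unadjusted p below 0.05 in limma, 1 of the 7 was lower at each time. In sham, 1 of the 7 was well above background on no array. Their summed levels, in which the brightest markers weigh most, were 80.9 to 92.0 in sham and 360 to 598 at 3 h. They were 820 to 857 at 12 h and 348 to 635 at 72 h. Of 5 macrophage markers measured, 2 were higher at 12 h and 5 at 72 h. The 8 epithelial markers summed to 1051 to 1206 in sham, 1406 to 1570 at 3 h, 1133 to 1381 at 12 h and 580 to 846 at 72 h, when 1 was called lower. Of 5 mesothelial markers 2 were lower at 3 and 12 h and 2 were higher at 72 h, and of 6 markers of endothelium and pericytes 2 were higher at 72 h. The part of these shifts in the values below was not tested.

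Among the inward rectifiers, which pass potassium into the cell more easily than out of it, 2 of 15 genes were higher at every time (Kcnj2 and Kcnj8), and 3, 4 and 3 were lower at 3, 12 and 72 h. Beside this and the class counts below, 3.26%, 4.1% and 4.55% of all genes were higher at these times, and 4.11%, 4.96% and 4.3% lower. Kcnj2 encodes the classical strong inward rectifier that holds the resting potential near the potassium equilibrium. It was read by 2 probes of the same transcript, which are shown by their first 30 bases because they gave different answers. The first, from chr11:110938023-110938082, plus strand, was the brighter and lies farther toward the end of the transcript. The second is from chr11:110936203-110936262, plus strand. Coordinates are those of the mouse build mm9 in the array files, and exons were not assigned here. A span longer than the 60 bases of a probe means that the probe matches in separate blocks.
Kcnj2, brighter probe: ccatctgttttgtatctaaagtcttcctat
Kcnj2, dimmer probe: ctcaaaatcaagcctctaatggtattacac

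On the brighter probe, Kcnj2 read -3.87, -3.38 and -3.22 in sham and -1.0, 0.06 and -0.34 at 3 h. It read 1.08, 0.54 and 1.0 at 12 h and 0.44, 0.06 and 0.58 at 72 h. Every cauterized array was above every sham array, and the 12 h arrays were above all 3 h arrays. The change was 3.07 ± 0.28 (adjusted p = 0.000127) at 3 h, 4.37 ± 0.28 (adjusted p = 1.28e-05) at 12 h and 3.85 ± 0.28 (adjusted p = 3.07e-05) at 72 h, which is 8.39-, 20.6- and 14.4-fold. At 72 h the change with slide as a block was 3.66 (adjusted p = 0.0103). The dimmer probe was well above background on 1 of 12 arrays and changed by 0.19, 1.77 and 0.55 at the 3 times, with a call at 12 h (adjusted p = 0.0189). With the mean of both probes the changes were 1.63, 3.07 and 2.20.

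Kcnj8 encodes the pore of the ATP-sensitive channel of smooth muscle and pericytes, and its probe lies at chr6:142513920-142513979, minus strand.
Kcnj8 probe, first 30 bases: ggctggagcacagtattcctatcctaatgc
It read 2.60, 2.59 and 2.72 in sham, 3.90, 4.18 and 4.43 after 3 h, 4.54, 3.99 and 4.59 after 12 h and 3.55, 3.62 and 3.89 after 72 h. The groups did not overlap with sham, and the 3 h and 12 h arrays overlapped with each other. The rise was 1.53 ± 0.19 (adjusted p = 0.000584), 1.74 ± 0.19 (adjusted p = 0.000201) and 1.05 ± 0.19 (adjusted p = 0.00386) at 3, 12 and 72 h. The call at 72 h was lost without 72 h array 3 (0.95, adjusted p = 0.015) and with slide as a block (0.72, adjusted p = 0.27). Abcc9, the regulatory subunit that this pore binds, changed by -0.54 (adjusted p = 0.118), -0.07 (adjusted p = 0.903) and 0.62 (adjusted p = 0.0791) and was not called.

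**Figure D3:**
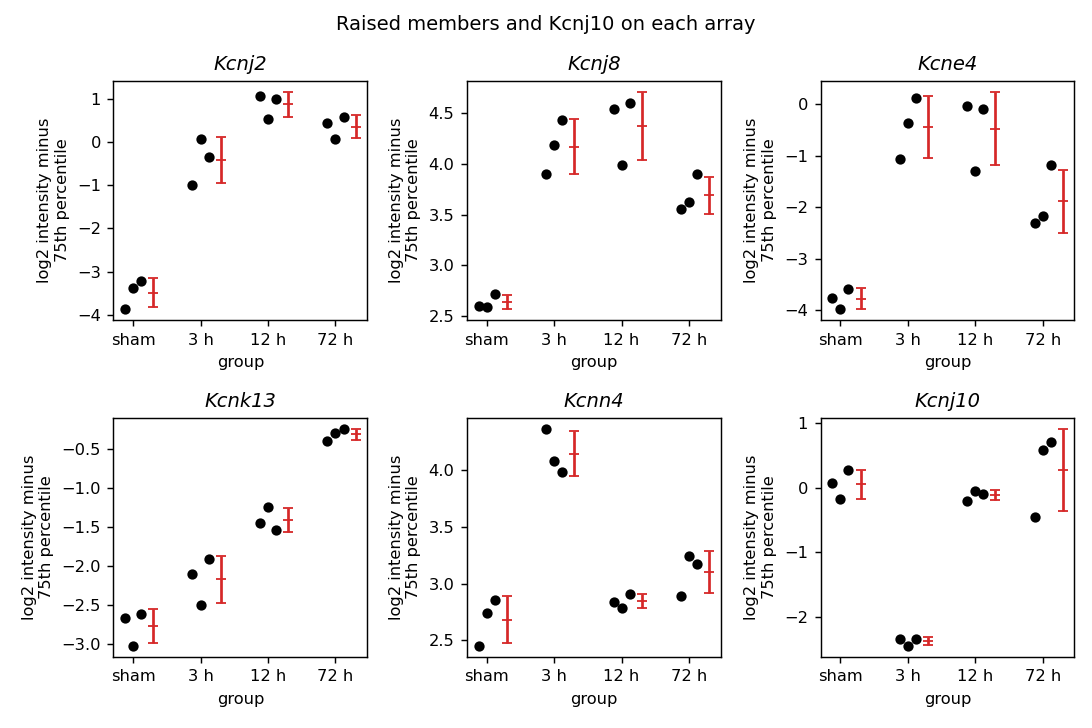
Relative log2 intensity (0 is the 75th percentile of an array) of Kcnj2, Kcnj8, Kcne4, Kcnk13, Kcnn4 and Kcnj10, by group. Points are the 3 arrays of a group and red marks their mean and SD; Kcnj2 and Kcne4 jump by 3 h, Kcnk13 climbs to 72 h, Kcnn4 is up and Kcnj10 down at 3 h only.

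Kcnj10, the rectifier with which glia clear potassium released by neurons, fell at 3 h and at no later time. It read 0.07, -0.18 and 0.27 in sham, -2.34, -2.45 and -2.34 after 3 h, -0.20, -0.05 and -0.09 after 12 h and -0.46, 0.58 and 0.71 after 72 h. The 3 h arrays lay far below all the others and close to each other, while the 12 h and 72 h arrays overlapped with sham. The change was -2.43 ± 0.26 (adjusted p = 0.000288) at 3 h, a 5.41-fold drop, beside -0.17 (adjusted p = 0.758) at 12 h and 0.22 (adjusted p = 0.589) at 72 h. The difference between 12 h and 3 h, 2.27 ± 0.26, was itself past the threshold (adjusted p = 0.00164), and all these calls held when any array was left out. Of the glia markers, Gfap was higher at 3 h, 1.99 (adjusted p = 0.012), and S100b and Sox10 were not called then, with -0.95 (adjusted p = 0.00652) and -0.88 (adjusted p = 0.0319).

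Kcnj12, a second strong rectifier close to Kcnj2, was lower at every time. It read -2.29, -2.19 and -2.38 in sham, -4.31, -4.63 and -4.68 after 3 h, -4.61, -5.47 and -3.97 after 12 h and -4.41, -3.74 and -3.35 after 72 h. All cauterized arrays were below all sham arrays, though only 6 of the 9 were well above background. The change was -2.25 ± 0.35 (adjusted p = 0.00214), -2.39 ± 0.35 (adjusted p = 0.00117) and -1.54 ± 0.35 (adjusted p = 0.013), and a second probe gave -1.81, -2.25 and -1.71, each called. With slide as a block the 72 h change was -2.62 (adjusted p = 0.0333). Kcnj12 and Kcnj2 moved in opposite directions at each time.

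Kcnj6, a channel opened by G proteins that slows neurons, was lower at 72 h only. It read -3.91, -4.38 and -4.32 in sham, -4.95, -4.87 and -3.42 after 3 h, -3.70, -5.72 and -5.80 after 12 h and -5.74, -6.82 and -6.11 after 72 h. No 72 h array was well above background, so that the fall of -2.02 ± 0.58 (adjusted p = 0.0349) means at least 1.91-fold. Such bounds compare the mean of the brighter group with, on each array of the dimmer group, the higher of its own signal and the lowest signal of any probe well above background. The call was lost without any 1 of the 6 arrays compared (-2.26 to -1.72, adjusted p between 0.0511 and 0.112) and with slide as a block (-0.93, adjusted p = 0.637). Kcnj5, also opened by G proteins, was lowest at 12 h, -1.31 (adjusted p = 0.0102), and its 72 h value of -1.19 (adjusted p = 0.0178) was lost without sham array 2 or 72 h array 1 or 2 (-1.17 to -0.86, adjusted p between 0.046 and 0.07) and with slide as a block (-1.39, adjusted p = 0.214). Kcnj13, a rectifier of transporting epithelia, was lower at 12 h, -1.22 (adjusted p = 0.0334), a call lost without any 1 of the 6 arrays compared (-1.34 to -1.03, adjusted p between 0.0507 and 0.122) and with slide as a block (-1.11, adjusted p = 0.0932).

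Kcnj16, which pairs with Kcnj10 to form a pH-sensitive channel, was named after its values were seen because it was called without a whole group above background. It fell by 2.11 at 3 h (adjusted p = 0.00223) and by 2.16 at 12 h (adjusted p = 0.00152). Only 2 sham arrays and 0 of the 3 h and 12 h arrays were well above background, which leaves drops of at least 1.01- and 1.20-fold. At 72 h its value was -0.25 (adjusted p = 0.641).

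Of the 2-pore-domain channels, leak channels that are open at rest, 1 of 14 was higher at 12 and 72 h (Kcnk13), and 3, 2 and 0 were lower in limma at 3, 12 and 72 h, with 4 lower at an unadjusted p below 0.05 at 72 h. Kcnk13 encodes a leak channel known from microglia, and its probe lies at chr12:101300820-101300879, plus strand.
Kcnk13 probe, first 30 bases: gagcctggtgcagaggcaactgactattta
It read -2.67, -3.02 and -2.62 in sham, -2.10, -2.5 and -1.91 after 3 h, -1.45, -1.25 and -1.55 after 12 h and -0.40, -0.30 and -0.25 after 72 h. The groups did not overlap with one another, in the order of time. The change was 0.60 (adjusted p = 0.0342) at 3 h, below the fold threshold, 1.35 ± 0.17 (adjusted p = 0.000437) at 12 h and 2.45 ± 0.17 (adjusted p = 2.19e-05) at 72 h, the last being 5.48-fold. Between 12 h and 72 h the rise was 1.1 ± 0.17 (adjusted p = 0.00221). With slide as a block the 72 h change was 2.65 (adjusted p = 0.00399), and no call was lost when an array was left out. The macrophage markers had a summed level of 25.4 to 26.8 in sham, 19.2 to 22.8 at 3 h, 28.5 to 30.5 at 12 h and 81.3 to 89.9 at 72 h, and their part in the values of Kcnk13 was not tested.

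Kcnk3 encodes a leak channel that closes in acid. It read -1.07, -1.1 and -1.28 in sham, -2.18, -2.35 and -2.91 after 3 h, -3.58, -3.26 and -3.32 after 12 h and -2.14, -2.33 and -1.82 after 72 h. Every cauterized array was below every sham array, and the 12 h arrays were the lowest. The change was -1.33 ± 0.20 (adjusted p = 0.00165) at 3 h and -2.24 ± 0.20 (adjusted p = 7.04e-05) at 12 h, a 4.72-fold drop, and its 72 h value of -0.95 (adjusted p = 0.00864) lay just short of the fold threshold. Kcnk5, a leak channel of epithelia that opens in alkali, was lower at 3 h only. It read 0.42, 0.54 and 0.11 in sham, -1.31, -1.70 and -1.23 after 3 h, -0.92, -0.25 and -0.54 after 12 h and -0.70, -0.33 and -0.54 after 72 h. The 3 h arrays were the lowest and all cauterized arrays were below sham. The change was -1.77 ± 0.20 (adjusted p = 0.000405) at 3 h, followed by -0.93 (adjusted p = 0.00915) and -0.88 (adjusted p = 0.0133), both short of 2-fold. Kcnk2, a leak channel opened by stretch and named after its values were seen, was called lower at 3 h, -1.56 (adjusted p = 0.0188), and 12 h, -1.78 (adjusted p = 0.00868). Only sham array 2 was well above background, which gives a bound of 1.12-fold at 12 h and none at 3 h. Its 3 h call was lost without sham array 2, 3 h array 2 or 3 h array 3 (-1.48 to -1.22, adjusted p between 0.0586 and 0.0677).

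**Figure D4:**
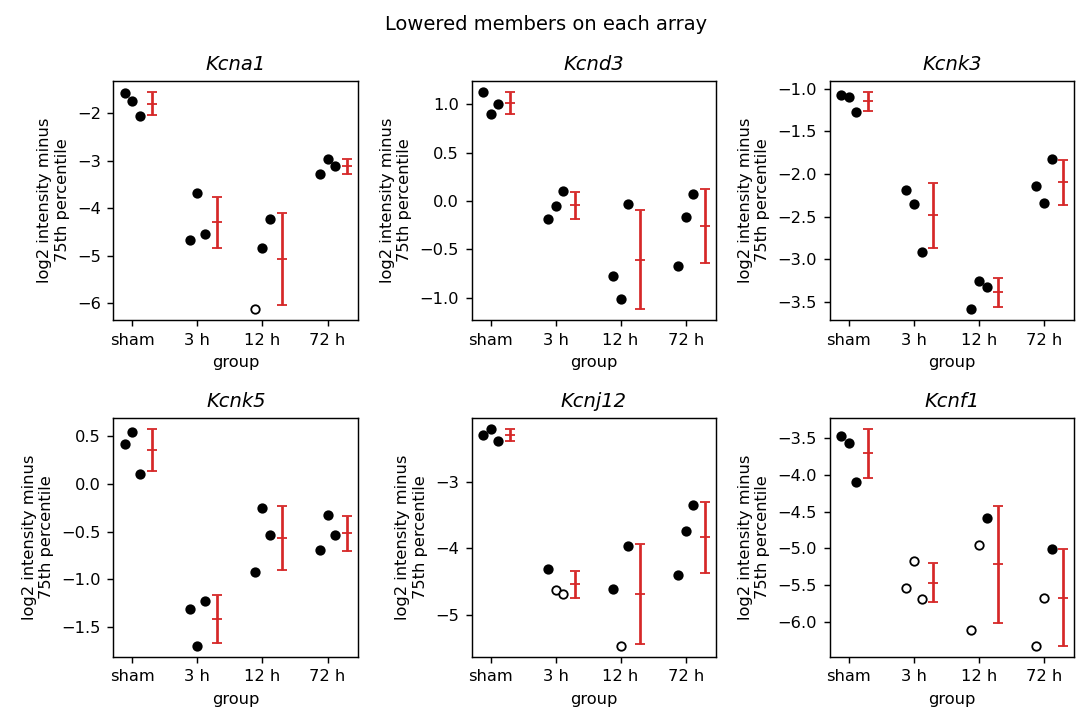
Relative log2 intensity (0 is the 75th percentile of an array) of Kcna1, Kcnd3, Kcnk3, Kcnk5, Kcnj12 and Kcnf1, by group. Filled points are arrays on which the probe was well above background, open points the others, and red marks the mean and SD of 3 arrays; in each panel every 3 h and 12 h array lies below every sham array.

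The voltage-gated pore subunits, which repolarise neurons and muscle after an action potential, held no member called higher by limma at any time, and 1, 1 and 0 were higher at an unadjusted p below 0.05. Of 30 genes, 7, 6 and 1 were lower at 3, 12 and 72 h, with a median change of -0.36, -0.49 and -0.22. Over all genes 3.26%, 4.1% and 4.55% were higher and 4.11%, 4.96% and 4.3% lower, so that 0 of 30 higher is not far from the share of all genes. Kcna1, Kcna2 and Kcna6 form the low-threshold delayed rectifiers of nerve fibres. Kcna1 read -1.58, -1.74 and -2.07 in sham, -4.66, -3.68 and -4.53 after 3 h, -6.12, -4.83 and -4.22 after 12 h and -3.27, -2.96 and -3.10 after 72 h. The 3 h and 12 h arrays lay below all others and 12 h array 1 was not well above background. The change was -2.49 ± 0.42 (adjusted p = 0.00314) at 3 h, -3.26 ± 0.42 (adjusted p = 0.000555) at 12 h, a 9.59-fold drop, and -1.32 (adjusted p = 0.0537) at 72 h.

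Kcna2 read -3.78, -4.57 and -4.71 in sham, -7.20, -4.82 and -6.81 after 3 h, -7.44, -7.28 and -7.00 after 12 h and -7.51, -6.33 and -5.32 after 72 h. Its probe was well above background on all sham arrays and on none of the other 9 arrays. Only the 12 h change passed the test, -2.89 ± 0.65 (adjusted p = 0.0105), and it means a drop of at least 1.53-fold. Kcna6 read -0.92, -0.99 and -1.14 in sham, -3.19, -2.41 and -3.10 after 3 h, -2.69, -3.32 and -2.19 after 12 h and -1.71, -1.17 and -0.93 after 72 h. The 3 h and 12 h arrays were below all sham and 72 h arrays, with a change of -1.88 ± 0.31 (adjusted p = 0.00266) and -1.72 ± 0.31 (adjusted p = 0.00335), and the 72 h value of -0.26 (adjusted p = 0.6) was not called. With the mean of its 2 probes, the second of which was well above background on 0 arrays, neither call remained (-0.80, adjusted p = 0.0455, at 3 h and -0.57, adjusted p = 0.131, at 12 h).

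Kcnd3, a pore subunit of the transient current that delays firing, was the only voltage-gated pore gene called at all 3 times. It read 1.13, 0.90 and 1.0 in sham, -0.18, -0.05 and 0.10 after 3 h, -0.78, -1.01 and -0.03 after 12 h and -0.68, -0.17 and 0.07 after 72 h. No cauterized array reached the sham arrays. The change was -1.05 ± 0.25 (adjusted p = 0.0171), -1.62 ± 0.25 (adjusted p = 0.0016) and -1.27 ± 0.25 (adjusted p = 0.00686) at 3, 12 and 72 h. The 3 h call was lost without sham array 1 or 3 h array 1 (-0.99 to -0.98, adjusted p between 0.055 and 0.0636), and no time was called with the mean of its 2 probes (-0.52, -0.89 and -0.62), the second of which was well above background on 0 arrays. At 72 h it was -2.13 with slide as a block (adjusted p = 0.014).

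Further pore genes were lower at 3 h. Kcnc1, a fast rectifier of rapidly firing neurons, changed by -1.40 (adjusted p = 0.000167) at 3 h, at least 1.95-fold since no 3 h array was well above background. With the mean of its 3 probes, of which the other two were well above background on 0 arrays, that change was -0.03. Kcnh3, a neuronal channel of the ether-a-go-go family, changed by -1.21 (adjusted p = 0.000771) at 3 h.

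Modifier subunits form no channel alone but alter the pore formed with another subunit. Of 10, 2 were lower at 3 h, 1 at 12 h and 2 at 72 h, and 0 were higher in limma, also at an unadjusted p below 0.05. With 3.26%, 4.1% and 4.55% of all genes called higher at the 3 times, 0 of 10 is close to the share of all genes. Kcnf1 was lower at every time and read -3.47, -3.56 and -4.09 in sham, -5.54, -5.17 and -5.68 after 3 h, -6.11, -4.95 and -4.59 after 12 h and -6.32, -5.67 and -5.01 after 72 h. All sham arrays were well above background, 0 of the 3 h arrays and 1 each of the 12 h and 72 h arrays. The change was -1.76 ± 0.41 (adjusted p = 0.0153) at 3 h, or at least 2.02-fold, -1.51 ± 0.41 (adjusted p = 0.0269) at 12 h and -1.96 ± 0.41 (adjusted p = 0.00866) at 72 h. The first of these calls was lost without sham array 1 or 2 or 3 h array 3 (-1.68 to -1.64, adjusted p between 0.0513 and 0.0599), the second without sham array 1 or 2 or 12 h array 1 (-1.44 to -1.06, adjusted p between 0.0811 and 0.0918), and the third with slide as a block (-2.90, adjusted p = 0.0596).

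Kcng4 was lower at 3 h only and read -4.80, -4.66 and -4.53 in sham, -7.17, -6.56 and -5.77 after 3 h, -5.41, -6.56 and -4.42 after 12 h and -4.71, -5.03 and -4.30 after 72 h. No 3 h array was well above background, and the change of -1.84 ± 0.49 (adjusted p = 0.0277) means at least 1.04-fold. It was lost without any 1 sham array or 3 h array 1 or 2 (-1.91 to -1.50, adjusted p between 0.0687 and 0.0862) and with the mean of its 2 probes (-0.95, adjusted p = 0.107). Kcnv1 was lower at 72 h only and read -3.55, -3.77 and -4.09 in sham, -3.90, -3.96 and -4.09 after 3 h, -4.75, -4.77 and -3.72 after 12 h and -5.49, -4.65 and -5.69 after 72 h. The 72 h arrays, 1 of 3 above background, lay below all sham arrays and overlapped with 12 h, with a change of -1.47 ± 0.32 (adjusted p = 0.0108) against sham. It was -2.51 with slide as a block (adjusted p = 0.0239), and -0.77 and not called with the mean of its 3 probes, of which the other two were well above background on 0 arrays.

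Of the 8 calcium- or sodium-activated channels, Kcnn4 was higher at 3 h and 2, 3 and 0 genes were lower in limma at 3, 12 and 72 h, with 3 lower at an unadjusted p below 0.05 at 72 h. Kcnn4 encodes the intermediate-conductance calcium-activated channel of secreting epithelium, red cells and activated immune cells. Its 3 probes lie at chr7:25170161-25170220, plus strand (the brightest), at chr7:25169184-25169782, plus strand, and at chr7:25166737-25167195, plus strand, and they are shown because they answered alike.
Kcnn4, brightest probe: gccagaagagggtacagggtgctgctcacc
Kcnn4, second probe: gccacatagctccacatgaactcacagaag
Kcnn4, last probe: aaacacgtgcacaacttcatgatggacatc
Kcnn4 read 2.45, 2.74 and 2.85 in sham, 4.36, 4.08 and 3.98 after 3 h, 2.84, 2.79 and 2.91 after 12 h and 2.89, 3.24 and 3.17 after 72 h. The 3 h arrays were above all others, and the 12 h arrays overlapped with sham. The change was 1.46 ± 0.15 (adjusted p = 0.000222) at 3 h, 2.75-fold, and 0.16 (adjusted p = 0.513) and 0.42 (adjusted p = 0.0743) later. The other probes gave 1.45 and 1.41 at 3 h, both called, and 0.14 and 0.05 at 12 h. The drop from 3 h to 12 h was -1.30 ± 0.15 (adjusted p = 0.00163).

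Kcnn3, a small-conductance channel of fibroblast-like cells that relay inhibitory nerve signals in the gut wall, read -2.17, -2.05 and -2.42 in sham, -3.97, -3.04 and -3.31 after 3 h, -3.26, -3.59 and -3.02 after 12 h and -2.74, -2.22 and -2.37 after 72 h. The 3 h and 12 h arrays lay below all sham arrays, and the 72 h arrays overlapped with them. The change was -1.23 ± 0.25 (adjusted p = 0.00742) at 3 h and -1.08 ± 0.25 (adjusted p = 0.0118) at 12 h. The first fell under 2-fold without 3 h array 1 (-0.96, adjusted p = 0.0188) and the second without sham array 2 or 12 h array 2 (-1.0 to -0.93, adjusted p between 0.0476 and 0.0479). Neither was called with the mean of its 2 probes, the second of which was well above background on 2 of 12 arrays (-0.59, adjusted p = 0.424, and -0.87, adjusted p = 0.265). Of 3 markers of interstitial cells of Cajal, Etv1 was lower at 3 h, -1.1 (adjusted p = 0.000925), and 12 h, -1.34 (adjusted p = 0.000209), and the others stayed under 2-fold. Kit changed by -0.66 (adjusted p = 0.00966) at 3 h and -0.996 (adjusted p = 0.00091) at 12 h, just short of the fold threshold, and Ano1 by -0.54 (adjusted p = 0.0117) and 0.05 (adjusted p = 0.856). These are not markers of the fibroblast-like cells, for which the marker lists held no gene. Their part in the values of Kcnn3 was not tested.

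Kcnma1, the large-conductance channel that relaxes smooth muscle, read -0.33, -0.48 and -0.33 in sham, -1.01, -0.74 and -0.79 after 3 h, -1.58, -1.61 and -1.30 after 12 h and -1.34, -0.69 and -0.50 after 72 h. The 12 h arrays were below all sham arrays, with a change of -1.11 ± 0.20 (adjusted p = 0.00321). Of its 6 probes, all above background on all 12 arrays, 3 were called lower at 12 h, at -1.11, -1.13 and -1.06. The other 3 changed by -0.76, 0.18 and -0.06, and the mean of all 6 by -0.66, which was not called. Kcnmb1, its smooth muscle beta subunit, changed by -0.75 (adjusted p = 0.0943), -0.38 (adjusted p = 0.414) and -0.19 (adjusted p = 0.666). Kcnu1, a channel known from sperm, read -4.77, -5.28 and -6.00 in sham, -7.20, -6.38 and -6.06 after 3 h, -6.68, -6.82 and -6.73 after 12 h and -4.79, -4.30 and -4.57 after 72 h. It was well above background on 1 sham array, on the 3 arrays of 72 h and on none between, so that its calls of -1.20 (adjusted p = 0.0323) at 3 h and -1.39 (adjusted p = 0.0146) at 12 h carry no fold. The 3 h call was lost without sham array 1 or 2 or 3 h array 1 or 2 (-1.28 to -0.87, adjusted p between 0.0582 and 0.118), and the 12 h call without sham array 1 (-1.1, adjusted p = 0.0568).

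Of the 15 auxiliary subunits, 1, 1 and 2 were higher at 3, 12 and 72 h, and 1, 2 and 0 were lower in limma, with 3 lower at an unadjusted p below 0.05 at 72 h. Kcne4 encodes a single-span subunit that slows or silences Kcnq1 and several voltage-gated pores. Its probe lies at chr1:78815838-78815897, plus strand.
Kcne4 probe, first 30 bases: gagaaagatgtgttgacttaaagacacagt
It read -3.76, -3.98 and -3.58 in sham, -1.07, -0.37 and 0.13 after 3 h, -0.02, -1.29 and -0.10 after 12 h and -2.30, -2.16 and -1.19 after 72 h. No cauterized array overlapped with sham, and the spread within the cauterized groups was wide. The rise was 3.34 ± 0.42 (adjusted p = 0.000647) at 3 h, 3.30 ± 0.42 (adjusted p = 0.00048) at 12 h and 1.89 ± 0.42 (adjusted p = 0.011) at 72 h, or 10.1-, 9.86- and 3.7-fold. With slide as a block the 72 h change was 1.33 and was not called (adjusted p = 0.347). Kcnq1, the epithelial pore that Kcne4 can bind, changed by -0.10 (adjusted p = 0.736), -0.87 (adjusted p = 0.00855) and -0.71 (adjusted p = 0.0247).

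Kcnab3, a cytoplasmic subunit of the Kcna channels, read -4.34, -4.24 and -4.32 in sham, -6.34, -6.10 and -5.60 after 3 h, -4.84, -6.12 and -5.38 after 12 h and -4.21, -4.68 and -4.72 after 72 h. All 3 h and 12 h arrays were below sham, with a change of -1.71 ± 0.30 (adjusted p = 0.00371) at 3 h and -1.15 ± 0.30 (adjusted p = 0.0223) at 12 h. No 3 h array was well above background, so the first is at least 1.34-fold, and the second was lost without sham array 1 or 2 or 12 h array 2 (-1.17 to -0.81, adjusted p between 0.0597 and 0.0685). With the mean of its 2 probes both changes were under 2-fold (-0.85 and -0.69). Kcnip4, a calcium sensor bound to the Kcnd channels, read -3.16, -3.10 and -3.36 in sham, -4.87, -4.07 and -3.92 after 3 h, -4.50, -5.45 and -3.85 after 12 h and -3.83, -3.11 and -3.00 after 72 h. The 12 h arrays were below sham and the change of -1.39 ± 0.39 (adjusted p = 0.031) was lost without any 1 sham array or 12 h array 1 or 2 (-1.47 to -0.97, adjusted p between 0.0539 and 0.0922). Kcne2, a subunit of Kcnq1 and Kcnh2 that was named after its values were seen, was called higher at 72 h, 1.16 (adjusted p = 0.0228). It was well above background on 0 of 12 arrays and gets no fold, and the call was lost without any 1 of the 6 arrays compared (1.09 to 1.20, adjusted p between 0.0518 and 0.0746) and with slide as a block (0.87, adjusted p = 0.396).

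For several genes the probe decided the call. Kcnh2, a rapid repolarising channel of heart and gut muscle, had probes at chr5:23827188-23827460, minus strand (brighter) and chr5:23825407-23825466, minus strand (dimmer), both above background on all 12 arrays.
Kcnh2, brighter probe: tgaacaggctggaaacccggctaagtgcag
Kcnh2, dimmer probe: tgatgactatgaataataaataattatcct
The brighter probe changed by -0.16 at 3 h and -0.41 at 12 h and was not called. The dimmer one changed by -1.85 (adjusted p = 0.000462) and -1.58 (adjusted p = 0.00074) and was called lower at both.

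Kcnn1, a small-conductance channel of neurons, had 4 probes. The brightest lies at chr8:73376967-73378580, minus strand, and the 1 called at 3 h and 12 h lies at chr8:73367057-73367116, minus strand.
Kcnn1, brightest probe: gtccactgtcatcttgcttggccttgtcat
Kcnn1, called probe: aatgtatacacagtaagacgtggggtggca
The brightest changed by -0.15 and -0.09 at 3 and 12 h, and the called probe by -1.61 and -1.23. Kcnn2, another small-conductance channel, changed by -0.69, -0.57 and -0.64 on its brightest probe, none called. A second Kcnn2 probe, above background on 8 arrays, fell by 1.37, 4.17 and 2.20 and was called at each time. Since it was not above background on the other arrays, these values are not read as folds. No lower bound was worked out for this probe. Single probes of Kcnd1 (1.1 at 12 h) and Kcnq1 (-1.1 at 12 h) were likewise called where the brightest was not. So were probes of Kcnip1 and Kcnt1, which were well above background on 1 and 3 of 12 arrays and get no fold. The isoforms behind such pairs were not resolved here.

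**Figure D5:**
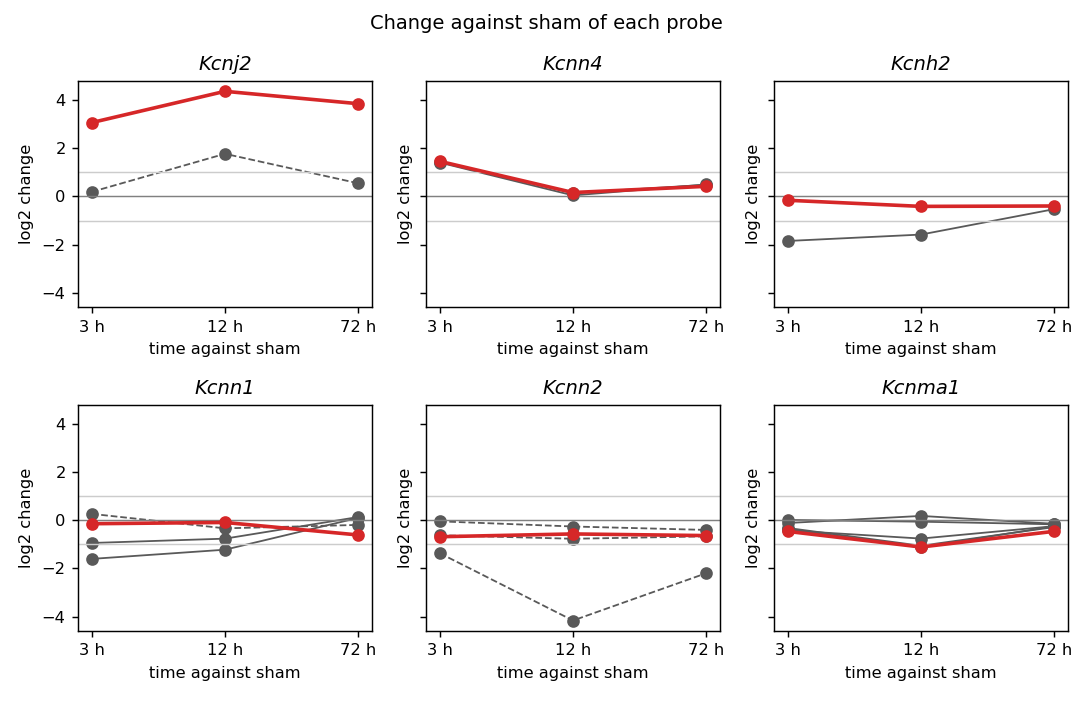
Log2 change against sham at 3, 12 and 72 h for every probe of Kcnj2, Kcnn4, Kcnh2, Kcnn1, Kcnn2 and Kcnma1. Red is the brightest probe, which stands for the gene, and solid lines are probes well above background on all 12 arrays; the 3 lines of Kcnn4 lie together while those of Kcnj2, Kcnh2, Kcnn1 and Kcnn2 part.

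Members near the fold threshold differed little on its 2 sides. Just past it were Kcnj8 at 72 h (1.05) and Kcnd3 at 3 h (-1.05). Just short of it, with an adjusted p below 0.05, were Kcnk3 at 72 h (-0.95), Kcnip3 at 12 h (-0.94) and Kcnk5 at 12 h (-0.93).

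Of 16 partner proteins and related channels, 1 was lower at 3 h (Amigo1, an adhesion protein that binds channels), 1 was higher at 12 h (Dpp10, a partner of the Kcnd channels) and 1 was lower at 72 h (Hcn4, a pacemaker cation channel). Their changes were -1.01 (adjusted p = 0.00435) for Amigo1, 1.43 (adjusted p = 0.00309) for Dpp10 and -1.16 (adjusted p = 0.0438) for Hcn4, and the median over the 16 was -0.095, -0.024 and -0.14 at 3, 12 and 72 h. Of 24 pumps, cotransporters and pump regulators that move potassium across the membrane, 3 were lower at 3 h. At 12 h 1 was higher and 6 were lower, and at 72 h 2 were higher and 3 lower, with a median change of -0.031, -0.29 and 0.24 at the 3 times. Of all genes, 3.26%, 4.1% and 4.55% were higher and 4.11%, 4.96% and 4.3% lower at 3, 12 and 72 h. Their median was 0.08, -0.01 and -0.14. The partner counts were thus close to the share of all genes, while the pump list held more lowered genes than that share at each time. Fxyd5, a regulator of the sodium pump, changed by 2.13 (adjusted p = 8.51e-05) at 12 h and 2.5 (adjusted p = 4.62e-05) at 72 h. Atp1b2, a pump subunit of glia, changed by -1.89 (adjusted p = 0.000137) at 12 h. Atp1a4, a pump subunit known from sperm, changed by 2.26 (adjusted p = 0.00756) at 72 h.

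Between the cauterized groups, the change was upward from 12 h to 72 h. From 3 h to 12 h, 3 members were higher (3.26%, against 1.89% of all genes) and 1 was lower (1.09%, against 1.56%). From 12 h to 72 h, 13 were higher (14.1%, against 4.33%) and 1 was lower (1.09%, against 3.19%). Of the members lowered at 12 h, Kcna1 rose again by 1.95, Kcna6 by 1.46 and Kcnk3 by 1.29 on the log2 scale. With slide as a block these values were 1.11, 0.92 and 1.22, and none of the 3 was called (adjusted p between 0.0553 and 0.252). All but 1 of the 12 h arrays lay on the other slide than the 72 h arrays, so that a value with slide as a block rests on 12 h array 3 alone. With the block 2 members were called higher, Kcnk13 and Kcnu1, and 1 lower, Kcnv1 (-1.55, adjusted p = 0.047), while Kcne4, the member lower without the block, was not called (-1.79, adjusted p = 0.142).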

How the data were processed

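Gene expression was measured in cecum tissue on 12 Agilent 1-colour arrays, 3 per group, grouped by the labels. The deposited scanner files, made with Feature Extraction 11.5.1.1 per the submitters' processing notes, hold an intensity per spot from which background has been subtracted, on a linear scale and without normalization across arrays. A deposited table of log2 values from GeneSpring GX 14.9, which is row-centred on medians, served as an alternative. Probe coordinates and sequences are those of the array design (mm9). Having 3 arrays per group limits the precision.

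Each log2 intensity was scaled to its array by subtracting the 75th percentile taken over all probes that are not controls. Control and outlier spots were left out, and spots of 1 probe were averaged. Differences were fitted with limma 3.58.1 (R 4.3.3) on 4 group means, with Benjamini-Hochberg adjustment over 56605 probes, and calls required both a change over 2-fold and an adjusted p under 0.05. The probe of highest mean stood for its gene. The code was tested on simulated data. Settings changed 1 at a time covered normalization, background correction, dim probes, outliers, slide, replicate number, variance model, groups fitted, threshold, probe and each array.

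The members and lists were chosen with earlier results of these data known. Called members above background on a whole group were named by class, up to 4 per class with values on every array and others at their largest change, besides the members nearest the threshold and those whose probes disagreed. The full values of Kcnj8 and the naming of Kcnj16, Kcnk2, Kcne2, Kcnk12 and uncalled partners were decided after their values were seen. Replicate numbers were not treated as pairing the samples. Of 18 same-numbered pairs, 0 had deviations correlated above 0.1, which cannot exclude that the numbers mark shared handling. Single values of a few genes that enter the counts are not reported here.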

Additional observations from a re-analysis of the deposited data

Results flagged for a closer look

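A tested difference between cauterized groups singled out 17 values reported here, each on the log2 scale with its standard error and limma's adjusted p, 3 arrays per group. Between 12 h and 72 h, voltage-gated pore genes higher at 72 h were Kcna1 by 1.95 ± 0.42 (adjusted p = 0.0116), Kcna5 by 2.90 ± 0.72 (adjusted p = 0.0209) and Kcna6 by 1.46 ± 0.31 (adjusted p = 0.0102). Kcna5, a delayed rectifier of vascular muscle, was well above background on 3 arrays of 72 h and on 0 of 12 h, so that its value means at least 2.82-fold. With the mean of its probes Kcna6 was not called (0.40, adjusted p = 0.297).

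Among inward rectifiers and leak channels, the 72 h arrays were above the 12 h arrays for Kcnj14 by 1.71 ± 0.46 (adjusted p = 0.0288), Kcnj16 by 1.91 ± 0.34 (adjusted p = 0.00425), Kcnk3 by 1.29 ± 0.20 (adjusted p = 0.00229), Kcnk12 by 2.04 ± 0.48 (adjusted p = 0.0163) and Kcnk13 by 1.1 ± 0.17 (adjusted p = 0.00221). Kcnj16 was well above background on 2 arrays of 72 h and on 0 of 12 h, which leaves at least 1.01-fold. Kcnk12 and Kcnk13 encode related leak channels, and Kcnk12, named after its values were seen, was well above background on 1 array, of 72 h, and gets no fold. Of the other classes, Kcnu1 by 2.19 ± 0.33 (adjusted p = 0.00214), Kcnab1 by 1.34 ± 0.27 (adjusted p = 0.00793), Kcnip4 by 1.29 ± 0.39 (adjusted p = 0.0486) and Kcne2 by 1.17 ± 0.30 (adjusted p = 0.0242) were also higher at 72 h, and Kcne4 was the member that was lower, by -1.41 ± 0.42 (adjusted p = 0.0428). The 12 h and 72 h arrays of Kcne4 overlapped, since 72 h array 3 (-1.19) lay above 12 h array 2 (-1.29). Kcnu1 was well above background on 3 arrays of 72 h and on 0 of 12 h, which leaves at least 1.33-fold, and Kcne2 on 0 of 12 arrays, which leaves none. With the mean of its probes Kcnab1 was not called (0.51, adjusted p = 0.210).

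Between 3 h and 12 h, the differences were Kcna3 by 1.40 ± 0.33 (adjusted p = 0.0284), Kcnj2 by 1.30 ± 0.28 (adjusted p = 0.0214), Kcnj10 by 2.27 ± 0.26 (adjusted p = 0.00164) and Kcnn4 by -1.30 ± 0.15 (adjusted p = 0.00163). Kcna3, a pore of lymphocytes and macrophages, was the only one of these not called against sham at 3 h or 12 h. It was well above background on 0 arrays of 3 h and 2 of 12 h, which leaves at least 1.11-fold. When 1 array was left out in turn, 7 of the 14 differences between 12 h and 72 h kept their call throughout, as did 2 of the 4 between 3 h and 12 h.

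Kcnk12 was lost without 12 h array 1 (1.95, adjusted p = 0.0558). Kcna5 was lost without 12 h array 1 or 2 or 72 h array 1 or 2 (2.37 to 2.95, adjusted p between 0.0556 and 0.0778), and Kcne2 without these or 72 h array 3 (1.08 to 1.20, adjusted p between 0.0590 and 0.0789). Kcnj14 was lost without any 1 of the 12 h arrays or 72 h array 1 or 2 (1.13 to 1.77, adjusted p between 0.0548 and 0.0846). Kcne4 and Kcnip4 lost their call in 8 and 9 of the 12 fits (-1.41 to -1.19 for Kcne4 and 0.86 to 1.33 for Kcnip4), which included any 1 sham array left out. Kcna3 was lost without 3 h array 2 or 3 or any 1 of the 12 h arrays (1.0 to 1.47), and Kcnj2 without 3 h array 1 or 12 h array 1 or 3 (1.01 to 1.24).

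With slide as a block, Kcnk13 (1.23, adjusted p = 0.0275), Kcnu1 (2.18, adjusted p = 0.0465), Kcnj10 (2.26, adjusted p = 0.0081) and Kcnn4 (-1.33, adjusted p = 0.0065) kept their call, and the other 13 values did not. For 12 h against 72 h that setting rests on 12 h array 3 alone.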

How the results depend on the processing

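Counts of potassium channel genes called moved by over 1.5 times as follows, and the cause was not tested. At 3 h the number lower was 3 with normexp, 9 with normexp at an offset of 1 (chosen after seeing the data), 9 with treat against a fold change of 1.5 and 11 with the mean of all probes, instead of 18. At 12 h the number lower was 1 with normexp, 9 with the offset of 1 and 5 with treat, instead of 18. At 72 h, 3 were higher with normexp, 2 with slide as a block and 2 with treat, instead of 5, while 1, 3 and 0 were lower and 13 with no fold threshold, instead of 6. From 3 h to 12 h, 1 was higher with slide as a block, within slide 1, with only the 2 groups and with treat and 7 with no fold threshold, instead of 3, and 2 were lower with quantile normalization or only the 2 groups, 4 with no fold threshold and 0 with treat, instead of 1. From 12 h to 72 h, 0 were higher with normexp, 6 with the offset of 1, 2 with slide as a block, 0 within slide 2 and 1 with treat, instead of 13. The number lower was then 0 with the percentile over probes above background, with normexp, within slide 2, with only the 2 groups and with treat, and 4 with no fold threshold, instead of 1.

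With 1 array left out, counts at 3 h were 4 to 4 higher and 13 to 19 lower, at 12 h 4 to 5 and 13 to 19, and at 72 h 4 to 6 and 4 to 8. From 3 h to 12 h they were 1 to 3 higher and 1 to 2 lower, and from 12 h to 72 h 8 to 14 and 0 to 2. Signs turned for Kcnu1 at 3 h with a floor on dim probes (0.20), for Kcne2 at 72 h against sham with normexp (-0.13) and the floor (-0.11), and for Kcna3 from 3 h to 12 h with normexp (-0.049). From 12 h to 72 h they turned for Kcne2 (-0.061 and -0.17) and Kcnk12 (-0.011 and -0.072) with normexp and the floor. Of 73 called values, 73 kept direction and call with the authors' table and with outlier spots kept, 72 with trend and robust variances or the percentile over probes above background, 64 with quantile normalization and 61 with only the 2 groups. Fewer kept both elsewhere, with 55 under the floor on dim probes, 53 with the mean of all probes, 52 with slide as a block, 44 with normexp at an offset of 1, 26 with treat and 18 with normexp, and 58 to 68 with 1 array left out. Within slide 2 the 12 h arm is 1 array and its values are those of the slide block. With the replicate number as a block, 17 members were lower at 3 h and 70 of the 73 called values kept their call. Dim probes limit the folds of genes near background.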
